A study of Mus musculus with 3 samples.

Results

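The genes described here are 7 genes of antigen presentation by major histocompatibility complex (MHC) class II, chosen by symbol from the 32285 features of the count tables: H2-Aa, H2-Ab1, H2-Eb1, H2-DMa, H2-DMb1, Cd74 and Ciita. All 7 were found and all had UMIs in every library. Spatial gene expression was measured in 10 µm fresh-frozen sections of mouse distal colon with Visium, in which polyadenylated RNA from a section is captured on barcoded spots and counted by unique molecular identifiers (UMIs). There were 3 libraries: Hgfac KO colon at day 2 after wounding (KO wound), Hgfac WT colon at day 2 after wounding (WT wound) and Hgfac WT colon without a wound (WT intact). Hgfac encodes HGF activator, a protease of the blood that cuts the inactive form of hepatocyte growth factor to make it active. The strain and age of the mice, the deleted part of Hgfac and the way the wounds were made are not given in the sources used here.

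MHC class II molecules display peptides from ingested material to CD4+ T cells. H2-Aa and H2-Ab1 encode the alpha and beta chains of the mouse I-A molecule, and H2-Eb1 encodes the beta chain of I-E. Cd74 encodes the invariant chain, which blocks the groove and guides new molecules to endosomes. There, H2-DM, made of the H2-DMa and H2-DMb1 or H2-DMb2 chains, exchanges the leftover invariant chain fragment for peptide. Ciita encodes the master coactivator that switches these genes on together. In the gut the pathway is known in dendritic cells, macrophages and B cells, and in epithelium exposed to interferon-gamma.

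Ciita binds no DNA itself and is known to dock on factors held at class II promoters, RFX at the X box and NF-Y at the Y box, an inverted CCAAT motif. The sequences of 3 members are shown because they hold this arrangement, the feature through which class II genes are known to be switched on together. RefSeq promoters of the GRCm38.p6 build, 300 bases each, were at hand for 4 of the 7 members. Each line gives the 80 bases from 110 to 31 bases before the gene's start, 5′ to 3′ on the gene's strand, with matches to CTNGNNAC (X-like, first) and ATTGG (Y-like, second) in capitals. H2-Aa lies at chr17:34287854-34287933 on the minus strand, H2-Eb1 at chr17:34305757-34305836 on the plus strand and H2-DMb1 at chr17:34153081-34153160 on the plus strand.
H2-Aa: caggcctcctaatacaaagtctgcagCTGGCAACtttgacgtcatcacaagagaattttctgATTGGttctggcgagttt
H2-Eb1: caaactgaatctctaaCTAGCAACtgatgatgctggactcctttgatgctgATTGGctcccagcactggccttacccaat
H2-DMb1: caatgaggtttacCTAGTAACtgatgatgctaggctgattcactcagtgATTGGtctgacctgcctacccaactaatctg
The X-like letters began 84, 94 and 97 bases before the start of H2-Aa, H2-Eb1 and H2-DMb1, and the Y-like letters followed 36, 35 and 36 bases after them. These letters were chosen with these promoters in view. Searched on both strands, CTNGNNAC was in 41.4% and ATTGG in 37.4% of the 32851 promoters of the table. Both in this order with starts 30 to 40 bases apart were in 0.554% of them. H2-DMa, the fourth member in the table, did not hold the pair in either of its listed promoters, and of the other class II genes nearby H2-Ob held it while H2-Oa, H2-DMb2 and H2-Eb2 did not. A match is a description of letters and was not tied to binding.

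Each library pooled 3 biological replicates and its spots formed 3 separate pieces of tissue, but no label ties a piece to an animal, so each group is 1 library and no test between groups was possible. The libraries lay on 1 slide in separate capture areas, which cannot be told apart from the groups. The 3 libraries held 8180099 to 11306771 UMIs on 502 to 640 spots, with a median of 11416 to 14638 UMIs per spot. A spot covers several cells, so fewer cells of a type and less RNA per cell cannot be told apart. All 16 epithelial markers were detected in each library, with a summed level of 22115 CPM in KO wound, 23061 in WT wound and 23505 in WT intact. CPM gives a gene's share of the UMIs in a library, layer or piece, scaled to a common total. Hgfac itself was at 49.0 CPM in the library labelled KO, against 94.8 in WT wound and 76.6 in WT intact. The deleted part of the gene is not known, so this checks the label only in part. Brackets give 95% intervals of the counting error alone. Features with at least 50 UMIs over both sides were measured, and a 2-fold ratio in either direction counted as changed. A piece of the WT wound library stands apart: piece 3 held 176 CPM of the 8 B cell markers, against 9.04 in piece 1 and 19.7 in piece 2, and the main class II ratios are given with and without it. Values without it in the paragraphs on gene and marker lists, spot correlations and the epithelial gradient were added after seeing the data.

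The class II genes were higher in the WT wound than in intact colon, by a margin that rested largely on 1 piece. Summed over the 7 genes there were 1533 CPM in WT wound, against 797 in WT intact, a ratio of 1.92 [1.87 to 1.98]. The WT wound pieces had 1116, 1023 and 2727 CPM, and the WT intact pieces 981, 767 and 694. All WT wound pieces lay above all intact pieces, the first 2 by little and piece 3 by far. Of the 7 members, 4 were at least 2 times higher in WT wound, where 3.29% of the 12402 features measured were, and 0 were at most 0.5 times. The pieces of 4 members did not overlap, a pattern seen upward in 15.6% of all features. The median log2 ratio of the members was 1.06, beside 0.09 for all features. Without WT wound piece 3 the ratio of the sum was 1.34 and only Ciita stayed at or above 2.

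**Figure D1:**
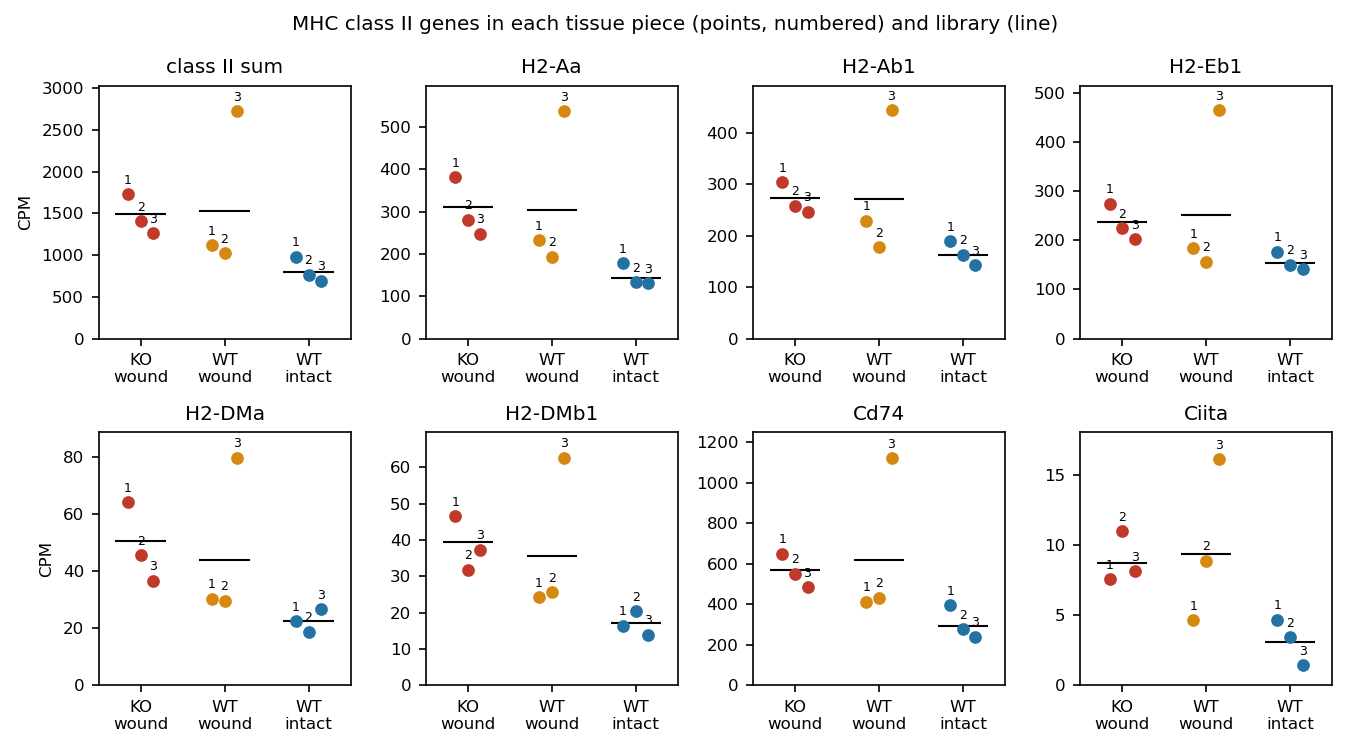
CPM of the class II sum and of each of the 7 genes in each tissue piece (numbered points) and in the whole library (horizontal line), for KO wound, WT wound and WT intact; the vertical axes start at 0. Piece 3 of WT wound is the highest point in every panel, with 2727 CPM of the sum against 1023 to 1728 CPM in the other wound pieces.

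Among the genes of the peptide-binding chains, H2-Aa and H2-Ab1 encode I-A. H2-Aa, on chromosome 17 from 34282744 to 34287823, had 232, 193 and 538 CPM in the WT wound pieces, against 178, 133 and 131 in the intact pieces. Its ratio was 2.11 [1.97 to 2.25] and the pieces did not overlap. H2-Ab1 had 229, 177 and 444 CPM in the WT wound pieces, against 189, 163 and 142 in the intact pieces. Here WT wound piece 2 lay below intact piece 1, and the ratio was 1.66 [1.56 to 1.78]. H2-Eb1, the I-E beta chain, had 184, 156 and 465 CPM in the WT wound pieces and 177, 151 and 141 in the intact pieces. Its ratio was 1.64 [1.53 to 1.75], with overlap, and it was 1.11 without WT wound piece 3. In GRCm38.p6 coordinates H2-Ab1 lies from 34263227 to 34269418 and H2-Eb1 from 34305867 to 34316674 on the same chromosome.

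The invariant chain and the peptide exchange factor had ratios near 2. Cd74, on chromosome 18 from 60803849 to 60812652, had 412, 432 and 1122 CPM in the WT wound pieces, against 393, 277 and 238 in the intact pieces. The ratio was 2.10 [2.01 to 2.20], and the lowest WT wound piece lay just above the highest intact one. H2-DMa had 30.3, 29.6 and 79.7 CPM in the WT wound pieces and 22.4, 18.7 and 26.6 in the intact pieces, a ratio of 1.96 [1.65 to 2.34]. H2-DMb1 had 24.2, 25.7 and 62.6 CPM in the WT wound pieces and 16.3, 20.3 and 13.8 in the intact pieces, a ratio of 2.09 [1.72 to 2.55]. For both H2-DM chains, at 34119693 to 34139101 (H2-DMa) and 34153191 to 34160229 (H2-DMb1) on chromosome 17, the pieces did not overlap. H2-DMb1 has a near copy, H2-DMb2, and H2-Eb1 has one in H2-Eb2, so reads may be split between them and these counts are uncertain.

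Ciita, the coactivator, on chromosome 16 from 10480014 to 10531064, had the fewest UMIs of the 7 members. It had 19, 36 and 51 UMIs in the WT wound pieces, or 4.64, 8.88 and 16.1 CPM, against 10, 11 and 4 UMIs in the intact pieces, or 4.67, 3.43 and 1.42 CPM. WT wound piece 1 and intact piece 1 were alike, so the groups overlapped. The library ratio was 3.07 [1.97 to 4.95], and 2.21 without WT wound piece 3.

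The makeup of the class II UMIs differed a little between wounded and intact colon. H2-Aa was 20.9% of them in KO wound and 19.8% in WT wound, against 18.1% in WT intact. The WT wound and intact pieces overlapped, with WT wound piece 2 at 18.89% and intact piece 3 at 18.91%. H2-Eb1 was 15.97% in KO wound and 16.5% in WT wound, against 19.3% in WT intact, and its share in each wound piece, 15.3% to 17.0%, was below that of each intact piece, 18.04% to 20.3%. H2-Ab1 was 18.3% in KO wound and 17.7% in WT wound, against 20.4% in WT intact, but WT wound piece 1 was at 20.5%. Cd74 was 38.3%, 40.3% and 36.8% in KO wound, WT wound and WT intact, but WT wound piece 1 was at 36.9% and intact piece 1 at 40.1%.

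The KO wound had nearly the class II level of the WT wound. The sum was 1490 CPM in KO wound, against 1533 in WT wound, a ratio of 0.972 [0.9502 to 0.994]. The KO wound pieces had 1728, 1404 and 1260 CPM and lay between the first 2 WT wound pieces, at 1116 and 1023, and the third, at 2727. None of the 7 members was changed 2-fold in either direction, where 0.73% of the 12463 features measured were at least 2 times higher and 0.746% at most 0.5 times. The pieces of all 7 overlapped, while 5.79% of all features had every KO wound piece above every WT wound piece. The median log2 ratio of the members was 0.01, beside 0.05 for all features.

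The members differed little among themselves in this comparison. Ratios ran from 0.923 [0.890 to 0.957] for Cd74 to 1.15 [1.01 to 1.31] for H2-DMa. Cd74 had 650, 551 and 483 CPM in the KO wound pieces, against 412, 432 and 1122 in the WT wound pieces. H2-Aa had 381, 281 and 247 CPM in the KO wound pieces, against 232, 193 and 538 in the WT wound pieces. For both genes each KO wound piece was above WT wound pieces 1 and 2 and below piece 3. H2-Ab1 had 304, 258 and 246 CPM in the KO wound pieces, H2-Eb1 had 275, 225 and 202, H2-DMa had 64.2, 45.5 and 36.6, and H2-DMb1 had 46.5, 31.8 and 37.4. These too lay above WT wound pieces 1 and 2 and below piece 3 throughout. Ciita had 7.57, 10.99 and 8.14 CPM in the KO wound pieces, against 4.64, 8.88 and 16.1 in the WT wound pieces, and so overlapped piece 2 as well. The direction therefore depended on piece 3: without it the KO over WT wound ratio of the sum was 1.39, and the 7 members were between 1.29 for Ciita and 1.68 for H2-DMa. Leaving out only the spots with at least 3 UMIs of B cell markers gave 1.10 for the sum.

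WT wound piece 3 was marked by a patch of very high spots. The 10% of WT wound spots with the most class II CPM, 64 of 640, held 36.5% of class II UMIs and 8.55% of all UMIs, and 50 of them lay in piece 3. In KO wound 57 top spots held 33.7% and were spread over the pieces, 28, 16 and 12 with 1 outside them, and in WT intact 50 held 44.3% and were spread 19, 12 and 19. The highest spot reached 18160 CPM in KO wound, 31361 in WT wound and 9322 in WT intact, and the median spot had 1118 CPM in KO wound, 1059 in WT wound and 446 in WT intact. So the median spots of the wounds were close although the WT wound held the extreme ones.

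**Figure D2:**
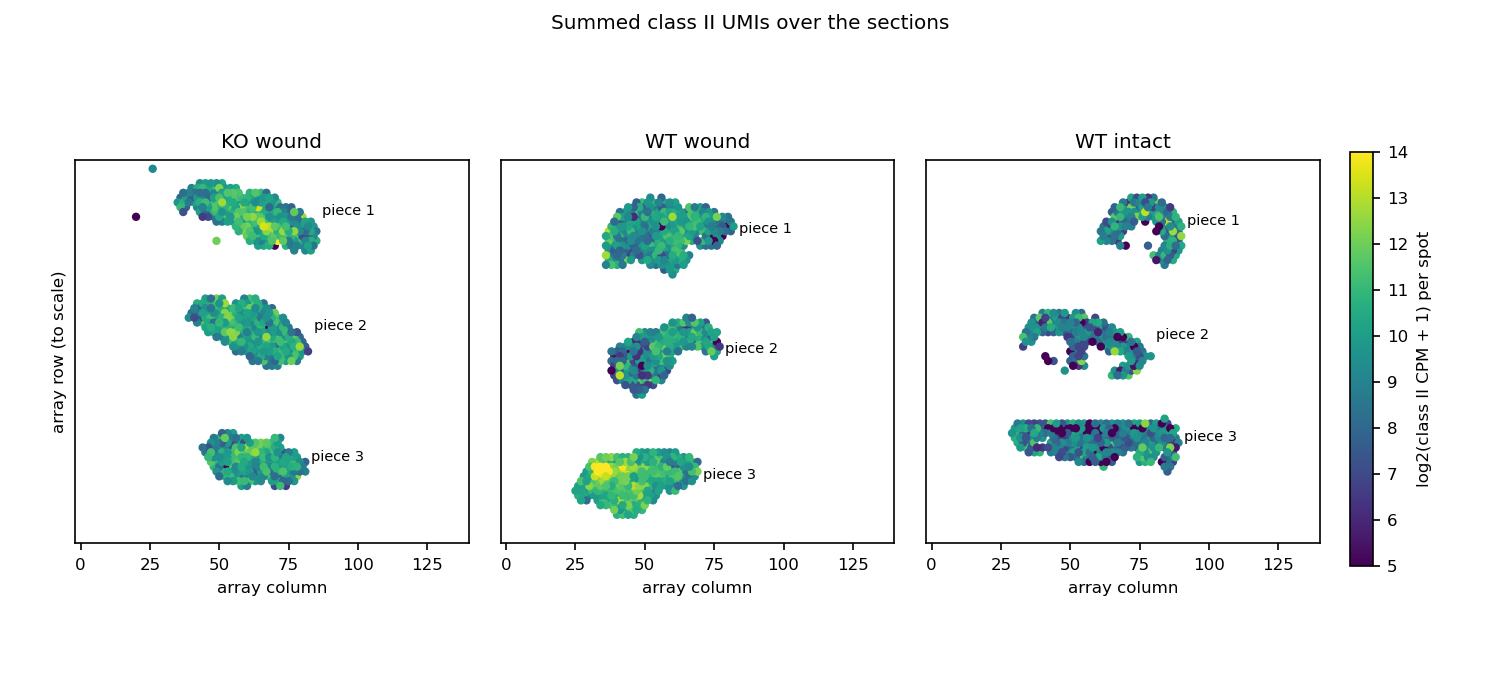
Each tissue spot at its place on the array, drawn to scale, coloured by log2 of its class II CPM plus 1 (7 genes summed), for KO wound, WT wound and WT intact; values beyond the colour bar take its end colour. A bright patch lies in WT wound piece 3, which holds 50 of that library's 64 highest spots.

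B cell markers were high in the same piece. Spots with at least 3 B cell UMIs numbered 13 in KO wound, 35 in WT wound and 13 in WT intact, and 28 of the 35 lay in WT wound piece 3. They held 6.82% of class II UMIs in KO wound, 19.5% in WT wound and 7.73% in WT intact. In WT wound piece 3 such spots had 7012 class II CPM and the remaining spots 2097, still above the remaining spots of piece 1, at 1119, and of piece 2, at 930. Cr2, a complement receptor of B cells and follicular dendritic cells, had 36 UMIs in WT wound, of which piece 3 held nearly all at 11.1 CPM, against 0 in piece 1 and 0.247 in piece 2. Ms4a1, which encodes the B cell protein CD20, had 17.7 CPM in piece 3, against 0.489 and 0.494 in pieces 1 and 2. Pax5 and Fcer2a were at 0 in piece 1, and all 8 B cell markers were detected in both wound libraries while Pax5 was at 0 in WT intact.

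The marker lists of other cell types were not all high in this piece. The dendritic cell list had 60.4 CPM in WT wound piece 3, against 34.0 and 30.1 in pieces 1 and 2, with Ccr7, the receptor that guides dendritic cells and lymphocytes to lymphoid tissue, at 8.86 against 0.244 and 0.987. The T cell list had 65.8 CPM in piece 3, against 30.8 and 22.7. The macrophage list was level over the pieces, at 787, 883 and 844 CPM. The plasma cell list, mainly Igha, was lowest in piece 3, at 610 CPM against 3040 and 8031. The single markers named here were chosen after their values were seen, and the part of these cells in the class II level was not tested.

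The other genes of the class II region were also highest in WT wound piece 3. H2-Oa and H2-Ob, whose H2-DO product restrains H2-DM and is known in B cells, had 13.6 and 14.9 CPM in WT wound piece 3, against 0.489 to 1.47 in pieces 1 and 2. H2-DMb2 had 31.3 CPM in piece 3, against 3.66 and 4.69. H2-Eb2 had 21 of its 25 WT wound UMIs there. Over the libraries, H2-Oa had 35 UMIs in KO wound, 48 in WT wound and 11 in WT intact, and H2-Ob had 27, 58 and 5. H2-DMb2 was at 10.8 CPM in KO wound, 11.8 in WT wound and 3.42 in WT intact, and 3.44 times as high in WT wound as in WT intact [2.27 to 5.37]. All 3 of these genes that were measured were at least 2 times higher in that comparison, where 3.29% of features were. This did not hold without WT wound piece 3: H2-DMb2 was at 4.17 CPM in WT wound, a ratio of 1.22 [0.718 to 2.09], H2-Oa had 5 UMIs against 11 in WT intact, and H2-Ob had 11 against 5, too few to be measured. H2-DMb2 was then 2.58 times as high in KO wound as in WT wound [1.73 to 3.93], against 0.914 with the piece. H2-Ea was not among the features.

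Next, the tissue layers were compared. Spots with more UMIs of 16 epithelial genes than of smooth muscle and fibroblast genes together were called epithelium, and the others stroma, which here takes in muscle wall, wound bed and connective tissue. Epithelium had 391 spots in KO wound, 356 in WT wound and 229 in WT intact, and stroma 181, 284 and 273. Class II genes were lower in epithelium than in stroma in both wounds, most in the KO wound, and close to even in intact colon. The sum was 1115 CPM in epithelium and 2767 in stroma of KO wound, a ratio of 0.403 [0.389 to 0.417]. It was 1327 and 2053 in WT wound, a ratio of 0.646 [0.627 to 0.667]. It was 778 and 841 in WT intact, a ratio of 0.925 [0.878 to 0.975].

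The pieces of each wound library agreed on the direction. The epithelium over stroma ratio was 0.381, 0.509 and 0.385 in the KO wound pieces, 0.920, 0.709 and 0.646 in the WT wound pieces, and 0.620, 1.22 and 0.814 in the intact pieces. Every KO wound piece lay below every WT wound and intact piece, while the WT wound and intact pieces overlapped. In KO wound 6 of the 7 members had at most 0.5 times the stromal level in epithelium, where 18.1% of features did. In WT wound 2 of 7 did, H2-DMa and H2-DMb1, against 17.2% of features, and in WT intact 0 of the 6 with enough UMIs did, against 15.4%. Ciita was the KO exception, at 0.554 [0.341 to 0.920] with 51 and 27 UMIs. Where only spots of clear layers were taken, with an epithelial share of at least 0.75 or at most 0.25, the WT intact ratio turned to 1.09.

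**Figure D3:**
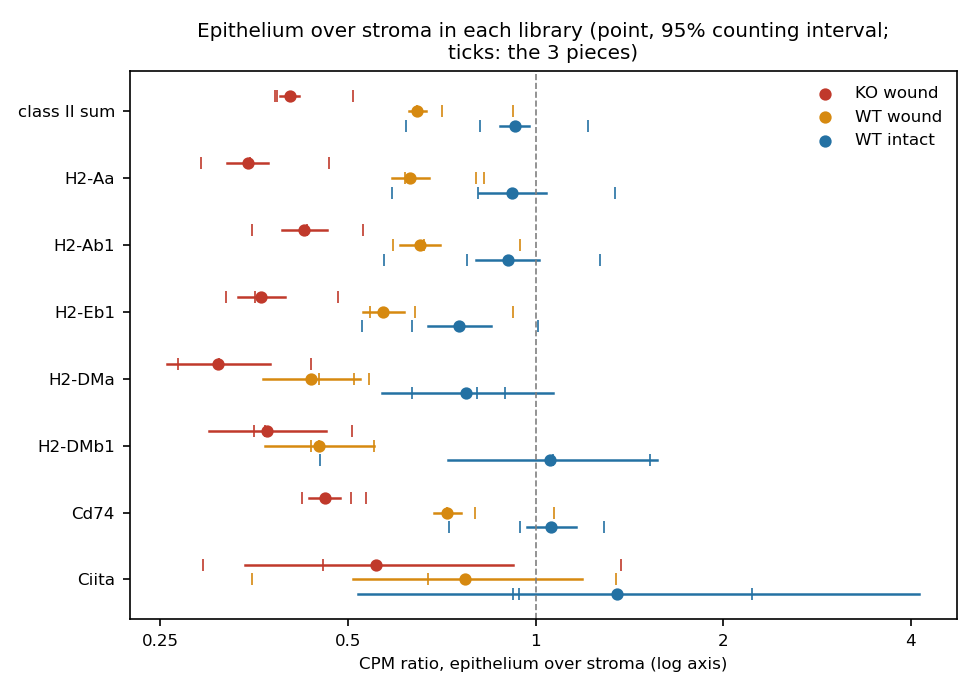
Ratio of CPM in epithelium over stroma, on a log axis, for the class II sum and each of the 7 genes in KO wound, WT wound and WT intact (points; bars, 95% counting intervals; small ticks, the 3 pieces; the dashed line is a ratio of 1). For the sum, KO wound lies at 0.403, WT wound at 0.646 and WT intact at 0.925.

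In both wounds H2-DMa had the lowest epithelium over stroma ratio of the 7 members, and Cd74 and Ciita the highest. H2-DMa had 33.5 CPM in epithelium and 108 in stroma of KO wound, a ratio of 0.310 [0.256 to 0.374], and 32.1 and 73.5 in WT wound, a ratio of 0.437 [0.365 to 0.523]. Cd74 had 450 CPM in epithelium and 980 in stroma of KO wound, a ratio of 0.459 [0.434 to 0.486], and 557 and 771 in WT wound, a ratio of 0.722 [0.688 to 0.759]. Cd74 was thus less weighted to stroma than H2-DMa in each wound library. In WT intact Cd74 was near even, at 299 CPM in epithelium and 282 in stroma, while H2-Eb1 was lower in epithelium, at 140 against 186, a ratio of 0.755 [0.672 to 0.849].

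Both layers of the WT wound had more class II UMIs than intact colon, and stroma by the larger ratio. Within epithelium the sum was 1327 CPM in WT wound, against 778 in WT intact, a ratio of 1.71 [1.65 to 1.77]. The WT wound pieces had 1089, 936 and 2278 CPM there, all above the intact pieces at 879, 803 and 632. Of the 7 members, 1 was at least 2 times higher, Ciita, where 2.64% of features were, and the pieces of 2, H2-Aa and Cd74, did not overlap, where 12.9% of features had this pattern upward. Epithelium here takes in mixed spots, and the difference was smaller where they were left out. With an epithelial share of at least 0.9 the sum was 907 CPM in WT wound and 781 in WT intact. The pieces there overlapped, at 744, 604 and 1508 CPM in WT wound and 685, 885 and 711 in WT intact. Without WT wound piece 3 the WT wound level there was 643 CPM, below WT intact. Within stroma the sum was 2053 CPM in WT wound, against 841 in WT intact, a ratio of 2.44 [2.32 to 2.57]. The WT wound pieces had 1184, 1320 and 3527 CPM there, against 1417, 661 and 777 in the intact pieces. Intact piece 1 lay above 2 of the WT wound pieces, so the groups overlapped.

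In stroma 6 members had at least 50 UMIs over both libraries. Of these, 5 were at least 2 times higher in WT wound, beside 4.66% of features, and the pieces of 2, H2-DMa and H2-DMb1, did not overlap, beside 13.8% of features. H2-DMb1 had the highest stromal ratio of the 6, 3.58 [2.53 to 5.17], and H2-Eb1 the lowest, 1.96 [1.76 to 2.19]. Without WT wound piece 3 the ratios of the sum were 1.30 in epithelium and 1.48 in stroma. The macrophage list in stroma was at 1368 CPM in WT wound, against 497 in WT intact, and its part in the stromal ratio was not tested.

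Between the wounds, the layers went in opposite directions at library level. Within stroma the sum was 2767 CPM in KO wound, against 2053 in WT wound, a ratio of 1.35 [1.30 to 1.40]. Stroma had 2945, 2437 and 2558 CPM in the KO wound pieces, against 1184, 1320 and 3527 in the WT wound pieces. Within epithelium the sum was 1115 CPM in KO wound, against 1327 in WT wound, a ratio of 0.840 [0.816 to 0.865]. Epithelium had 1123, 1240 and 984 CPM in the KO wound pieces, against 1089, 936 and 2278 in the WT wound pieces. The pieces overlapped in both layers. Stromal ratios of the 7 members ran from 1.19 [0.694 to 2.01] for Ciita to 1.52 [1.41 to 1.65] for H2-Aa, and epithelial ones from 0.807 [0.771 to 0.845] for Cd74 to 1.08 [0.889 to 1.32] for H2-DMb1. Without WT wound piece 3 the stromal ratio of the sum was 2.22 and the epithelial one turned to 1.10. The macrophage list in stroma was at 2324 CPM in KO wound, against 1368 in WT wound, a ratio of 1.70 [1.63 to 1.77], and in epithelium at 657 against 627, a ratio of 1.05. Its part in these differences was not tested.

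**Figure D4:**
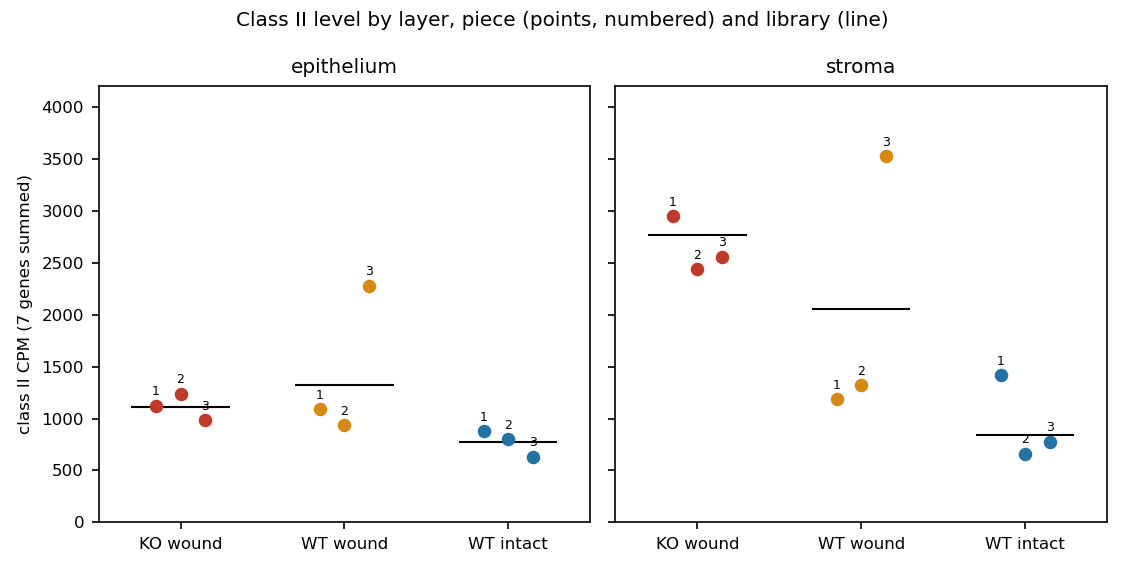
Summed CPM of the 7 class II genes in epithelium (left) and stroma (right) for each tissue piece (numbered points) and library (line) of KO wound, WT wound and WT intact; the vertical axis starts at 0. In stroma the KO wound pieces lie at 2437 to 2945 CPM, between WT wound pieces 1 and 2, at 1184 and 1320, and piece 3, at 3527.

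The kind of stroma differed between the libraries. Stromal spots were split, after the data were seen, by whether smooth muscle or fibroblast markers led. Fibroblast markers led in 50 stromal spots of KO wound and 54 of WT wound, but in 1 of WT intact. These spots had 4097 class II CPM in KO wound, with pieces at 4570, 3521 and 3700, against 2701 in WT wound, with pieces at 1436, 2150 and 6117. Muscle-led stroma had 2293 CPM in KO wound, with pieces at 2483, 1979 and 1991, 1920 in WT wound, with pieces at 1109, 1149 and 3210, and 844 in WT intact, with pieces at 1417, 661 and 784. Fibroblast-led stroma thus had the higher level in every piece of the wounds. Macrophage markers were high there too, at 3491 CPM in KO wound and 2314 in WT wound, against 1907 and 1174 in muscle-led stroma of the same libraries.

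From stroma to epithelium the class II level in the WT wound rested on piece 3, while no KO piece stood so far apart. In KO wound the sum peaked at 3281 CPM where epithelial markers were 0.1 to 0.25 of the layer markers and was 771 where they were 0.9 or more. In WT wound it was 1868 CPM in the same stromal bin, 2427 at 0.25 to 0.5, 2376 at 0.5 to 0.75 and 907 at 0.9 or more. The pieces of these middle bins ran from 916 to 4213 and from 1361 to 5199 CPM, with piece 3 highest in both, and B cell markers were also highest there, at 158 and 216 CPM. Without piece 3 the WT wound had 1219, 1190 and 1422 CPM in these 3 bins, with no such peak, and 643 at 0.9 or more. In KO wound the pieces of the 0.1 to 0.25 bin had 3544, 3076 and 2623 CPM. Macrophage markers were lower towards the epithelium in both wounds, and were at 2612 CPM in the KO peak bin, 1296 in the same WT wound bin and 419 in that of WT intact. In intact colon the class II sum of the library stayed between 640 and 1030 CPM over the 6 bins and showed no such slope. Its pieces differed, from 410 to 2687 CPM over the bins. The highest value was on 10 spots of piece 1 at 0.25 to 0.5, against 795 and 785 CPM in pieces 2 and 3. In the bin of 0.9 or more, nearly pure epithelium, the libraries were closer than in stroma, with WT intact at 781 CPM.

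Over all spots, class II genes were highest at and next to the wound bed in both wounds. The 10% of spots with the highest CPM of 16 wound-bed genes, among them S100a8, Arg1 and Mmp10, were taken as the core in each library, and rings were counted in array steps from it. From the core outwards, through 1 to 2 and 3 to 5 steps to 6 steps or more, the class II sum was 2274, 2267, 1145 and 1116 CPM in KO wound and 2323, 1804, 1419 and 1125 in WT wound. WT intact, ranked in the same way without a wound, had 855, 738, 864 and 742. The core was above the outermost ring in all pieces of both wounds, at 2821, 2488 and 1610 CPM against 1036, 1186 and 1126 in KO wound, and at 1784, 1601 and 4695 against 989, 795 and 1468 in WT wound.

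The layer of these spots changed with distance too. In KO wound 38 of the 57 core spots were stroma, against 8 of 154 in the outermost ring, and in WT wound 55 of 64, against 12 of 129. Within epithelium alone KO wound had 1225, 1237, 1064 and 1115 CPM from core to outermost ring. Only 19 of these spots were in the core, none of them in piece 1, and the pieces went opposite ways, with 1826 CPM in the core and 1185 in the outermost ring of piece 2, and 672 and 1126 in piece 3. Within stroma KO wound had 2996 and 3186 CPM in the core and the first ring, and 1715 and 1125 further out. Stroma of WT wound had 2196 CPM in the core, and 1922, 2359 and 1532 in the rings outwards, highest at 3 to 5 steps. In each of its pieces the core was above that ring, at 1535, 1583 and 5096 CPM against 918, 1361 and 3979. Stroma of WT intact was lowest in the core, at 602 CPM, and had 771, 1311 and 1019 outwards. Epithelium of WT wound had 2702 CPM on 9 core spots, and 1666, 1264 and 1101 in the rings outwards. Epithelium of WT intact, without a wound, also had its highest value in the core, at 1488 CPM on 5 spots, and 703, 803 and 735 outwards. Macrophage markers were highest in the core too, at 2291 CPM in the core and 556 in the outermost ring of KO wound, and 1818 and 547 in WT wound.

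**Figure D5:**
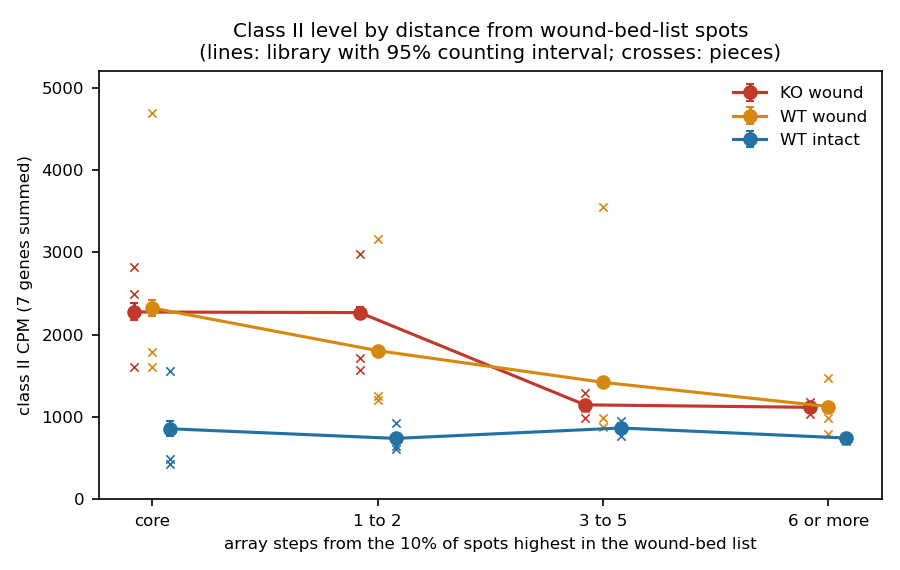
Summed CPM of the 7 class II genes by distance, in array steps, from the 10% of spots highest in wound-bed genes, for KO wound, WT wound and WT intact (points and lines, library with 95% counting interval; crosses, pieces); the vertical axis starts at 0. KO wound and WT wound start at 2274 and 2323 CPM and end at 1116 and 1125 CPM, while WT intact stays at 738 to 864.

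Marker lists of macrophages, dendritic cells, B cells and T cells were also higher in the wounds than in intact colon. The macrophage list, of 10 genes led by C1qb, was at 1035 CPM in KO wound, 837 in WT wound and 461 in WT intact, with all 10 detected in each. Its WT wound over WT intact ratio was 1.82 [1.75 to 1.89] in the whole library, 1.41 in epithelium and 2.75 in stroma. Of its 10 genes, 4 were at least 2 times higher in the whole library, beside 3.29% of features. The dendritic cell list was at 46.4, 39.98 and 19.6 CPM in KO wound, WT wound and WT intact, and the T cell list at 38.1, 37.7 and 17.5. The B cell list was at 20.5 CPM in KO wound, 59.5 in WT wound and 11.5 in WT intact. The pieces of WT wound and WT intact did not overlap for the macrophage and dendritic cell lists. They overlapped for the T cell and B cell lists. All 4 B cell genes measured had at least 2 times the intact level in WT wound, where 3.29% of features did. All 4 were at most 0.5 times in KO wound against WT wound, where 0.746% of features were. Both calls rested on WT wound piece 3. Without it the B cell list was at 14.4 CPM in WT wound, 1.25 times the intact level [0.945 to 1.66], and KO wound over WT wound turned to 1.43 [1.13 to 1.82]. Of the 2 B cell genes that then had enough UMIs, Cd79a and Cd79b, neither passed 2-fold in either comparison. The WT wound over WT intact ratios of the macrophage, dendritic cell and T cell lists were 1.81, 1.64 and 1.53 without the piece. KO wound piece 1, the highest KO piece for class II, also had the most macrophage UMIs, at 1389 CPM against 810 and 783, and smooth muscle UMIs, at 12175 against 4293 and 3885. The part of these cell types in the class II ratios was not tested.

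Over spots, class II went with macrophage markers more than with dendritic cell or B cell markers, though not more than with every list. Spearman's rho between log2 CPM of the class II sum and of the macrophage list was 0.58 over 572 spots of KO wound, 0.56 over 640 of WT wound and 0.38 over 502 of WT intact. For the dendritic cell list it was 0.37, 0.42 and 0.31, and for the B cell list 0.20, 0.28 and 0.14. The fibroblast list had 0.55, 0.42 and 0.21, and the class I presentation genes 0.29, 0.58 and 0.34, in WT wound above the macrophage list. With its piece 3 left out, WT wound had 0.62 for the macrophage list, 0.52 for the fibroblast list, 0.36 for class I presentation and 0.12 for the B cell list. Among the members, Cd74 correlated with the sum of the other 6 at 0.72, 0.80 and 0.56, and Ciita at 0.17, 0.26 and 0.15, where its few UMIs limit the value. Spots share library, depth and neighbours, and sparse lists give lower values, so these are descriptions. Class II UMIs were also present where no UMI of the macrophage, dendritic cell or B cell lists was counted. In WT intact 29 stromal spots with none, with a median depth of 5126 UMIs, had 391 class II CPM [298 to 504]. The other 244 stromal spots were deeper, with a median of 8682 UMIs, and had 870 CPM. Shallower spots can miss marker UMIs, so the cells in the 29 spots are not known. The other layers and libraries had 2 to 7 such spots each.

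Genes with the pattern most like the class II sum were ranked over the 18 combinations of 3 libraries, 3 pieces and 2 layers, among 6963 genes with at least 500 UMIs. The 8 highest by Pearson's r of log2(CPM + 1) were B2m (0.94), Ptprc (0.94), Selplg (0.94), H2-Q7 (0.91), Cd52 (0.90), Ly86 (0.90), Coro1a (0.90) and Rac2 (0.89). B2m encodes the light chain of MHC class I, and Ptprc encodes CD45, the surface phosphatase of blood-derived cells. Without WT wound piece 3 they were still between 0.87 and 0.96. The units share libraries and tissue, so no test is given.

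The factors that hold Ciita at promoters differed little between libraries. Of the 7 genes for the RFX subunits, NF-Y subunits and Creb1, none was changed 2-fold in either comparison. For WT wound over WT intact 3.29% of features were at least 2 times higher and 3.08% at most 0.5 times. For KO over WT wound these shares were 0.73% and 0.746%. The median log2 ratio of the 7 was 0.08 for WT wound over WT intact, beside 0.09 for all features. It was 0.22 for KO over WT wound, beside 0.05. Nfyb, an NF-Y subunit, was highest in the first, at 22.6 CPM in WT wound, against 18.1 in WT intact, a ratio of 1.25 [1.01 to 1.54]. Nfya was highest in the second, at 25.6 CPM in KO wound, against 20.1 in WT wound, a ratio of 1.28 [1.06 to 1.54]. The pieces of Nfya overlapped. Nfyb was at 27.2 CPM in KO wound, and alone of the 7 its pieces did not overlap in either comparison. This pattern was seen upward in 15.6% of features in the first comparison and 5.79% in the second.

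Genes of the interferon-gamma pathway, the main inducer of Ciita outside immune cells, differed little in summed level between WT wound and WT intact. The list was at 954 CPM in WT wound, against 882 in WT intact, a ratio of 1.08 [1.05 to 1.11], and the pieces overlapped. Its ratio was 1.04 in epithelium, where the pieces overlapped, and 1.23 in stroma, where they did not. Of 14 genes 10 were measured for WT wound over WT intact, and none changed 2-fold, where 3.29% of features were at least 2 times higher. The ratio was above 1 for 9 and below 1 for 1, and the pieces of 4 did not overlap upward, beside 15.6% of features. The median log2 ratio of the 10 was 0.32, beside 0.09 for all features. Gbp2, an interferon-induced GTPase, was at 37.9 CPM in WT wound, against 24.1 in WT intact, a ratio of 1.58 [1.33 to 1.87], or 1.27 without WT wound piece 3. Il18, an epithelial cytokine that induces interferon-gamma, was lower, at 194 CPM in WT wound, against 256 in WT intact, a ratio of 0.758 [0.714 to 0.805]. The pieces of Il18 overlapped. For KO over WT wound the ratio of the list was 1.16 [1.13 to 1.19], and the pieces overlapped. The median log2 ratio of the 11 genes then measured was 0.20, beside 0.05 for all features. Irf1, an interferon-induced factor that acts on Ciita, was highest in this comparison. It was at 132 CPM in KO wound, against 101 in WT wound, a ratio of 1.31 [1.21 to 1.42], and its pieces overlapped. The list's level was higher in epithelium than in stroma in each library. The ratio was 1.63 in KO wound, 1.66 in WT wound and 1.96 in WT intact. The sum leans on few genes, and its leading gene made up 29.5% to 32.2% of the list's UMIs in each library. Il18 added 194 of the 954 CPM in WT wound and 256 of the 882 in WT intact. The summed level therefore need not follow that of the interferon-induced genes. The part of this pathway in the class II levels was not tested.

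Endosomal proteases and their partners, which prepare peptide and trim the invariant chain, were mostly higher in the wound. Of 10 genes 9 had a WT wound over WT intact ratio above 1. Their median log2 ratio over all 10 was 0.43, beside 0.09 for all features. Of the 10, 1 was at least 2 times higher, beside 3.29% of features, and the pieces of 7 did not overlap upward, beside 15.6%. Lgmn, an asparagine-specific protease, had 185 CPM in WT wound, against 87.0 in WT intact, a ratio of 2.13 [1.95 to 2.32]. Ctss, the cathepsin that trims the invariant chain, had 365 CPM in WT wound, against 245 in WT intact, a ratio of 1.49 [1.41 to 1.57]. The pieces of Ctss overlapped. Cst3, which encodes a cathepsin inhibitor, was lower, at 492 CPM in WT wound, against 800 in WT intact, a ratio of 0.616 [0.594 to 0.638]. Lgmn was higher again in the KO wound, at 276 CPM against 185 in WT wound, a ratio of 1.49 [1.41 to 1.58], and its pieces did not overlap.

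Class I presentation genes had smaller ratios of WT wound over WT intact, with a median log2 ratio of 0.38 over the 14 measured of 15, beside 0.09 for all features. Of these, 2 were at least 2 times higher, where 3.29% of all features were. They were Tap1, a subunit of the peptide transporter, at 2.99 [2.39 to 3.77], and B2m, at 2.16 [2.08 to 2.24]. Without WT wound piece 3 Tap1 was at 2.23 and B2m, at 1.67, no longer passed. H2-T23, which encodes the non-classical molecule Qa-1, was lower, at 0.716 [0.652 to 0.785], with overlapping pieces. For KO over WT wound B2m was at 0.910 [0.884 to 0.936], turning to 1.18 without the piece, and H2-Q4, a class I gene with close relatives, at 0.606 [0.391 to 0.925], or 0.912 without it. Of 5 measured costimulation and checkpoint genes 1 passed 2-fold upward in WT wound over WT intact, beside 3.29% of features. None passed in KO over WT wound, where 0.73% of features were at least 2 times higher and 0.746% at most 0.5 times. Cd40, the receptor for T cell help, had 80 UMIs in WT wound and 17 in WT intact, a ratio of 3.40 [1.999 to 6.13], or 2.13 without the piece. The pieces of Cd40 overlapped. Of the genes of class II surface turnover none passed 2-fold in either comparison, with 2 and 3 measured. Cd83, which keeps class II at the surface, had 15.3 CPM in KO wound, against 10.3 in WT wound, a ratio of 1.495 [1.16 to 1.93]. Its pieces overlapped, at 9.62 to 21.6 CPM in KO wound and 5.43 to 13.9 in WT wound.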

How the data were processed

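Visium libraries were analysed from the raw UMI counts per gene and spot that the authors deposited, unnormalized, made with Space Ranger 1.2.1 per the file headers and with the mm10 build per the submitters' processing notes; other settings are not given in the sources used here. Only spots over tissue were kept, 572 in KO wound, 640 in WT wound and 502 in WT intact, and none was removed for depth. Counts were summed per library, piece (connected spots, at least 20, numbered by array row) and layer, and given as CPM with exact Poisson intervals. A count of 0 allows up to 0.336, 0.265 and 0.367 CPM in KO wound, WT wound and WT intact (3 UMIs).

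Ratios have exact conditional binomial 95% intervals, which cover counting error only and not the spread between animals. With 1 library per group there was no test. On counts simulated with counting error alone, as the intervals assume, they held the true ratio for 95.4% of unchanged genes among 12402 (WT wound over WT intact). For KO over WT wound it was 95.6% among 12463. The simulation held no spread between pieces or animals, so it checks the computation only.

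The members and gene lists were chosen with earlier results of these data known. All 7 members were named. Of each pathway list up to 3 genes in each direction could be named, ranked by the interval bound nearest to 1, and so could the other genes of the class II region. The 8 genes most like the class II sum were named. The single values of 1 interferon-gamma pathway gene are not reported here. Alternatives were edgeR 4.0.16 TMM factors, equal weight per spot or piece, thinning to 5000 UMIs, other layer rules, leaving out B-cell-rich spots, mitochondrial genes or Cd74, and leaving out each piece. Stroma types were split after seeing the data. Python 3.11.15, numpy 2.4.6, scipy 1.17.1, pandas 2.3.3 and R 4.3.3 were used.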

Additional observations from a re-analysis of the deposited data

How the results depend on the processing

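With 1 library per group nothing here is a test, and the depth of each library limits Ciita, H2-Oa, H2-Ob and H2-Eb2 most. No paired analysis was possible because each group is 1 library and no number in the labels links pieces. The summed class II ratio of WT wound over WT intact was 1.83 with TMM factors, 2.37 with equal weight per spot, 1.99 per piece, 2.28 with spots thinned to 5000 UMIs, 1.71 without B-cell-rich spots, 1.82 without Cd74 and 2.04 as the mean over the layers, and 1.34 to 2.28 over the fits that left out 1 piece. At a fold of 1.5 all 7 members counted as changed, against 4 at 2-fold, and 1 to 5 did at 2-fold when 1 piece was left out.

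KO wound over WT wound was 0.941 with TMM factors, 0.889 per spot, 0.903 per piece and 0.913 thinned, and turned to 1.10 without B-cell-rich spots, 1.01 without Cd74 and 1.06 as the mean over the layers. It was 0.820 to 1.39 with 1 piece left out, highest without WT wound piece 3. H2-Eb1 turned to 1.03 without B-cell-rich spots and 1.025 as the mean over the layers, and Cd74 to 1.085 and 1.01. With 1 piece left out H2-Eb1 was 0.777 to 1.40, H2-DMa 0.939 to 1.68 and Cd74 0.776 to 1.35, H2-Ab1 0.845 to 1.34, H2-Aa 0.851 to 1.46, H2-DMb1 0.944 to 1.59 and Ciita 0.724 to 1.29. No member passed 2-fold in any of these.

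Epithelium over stroma in KO wound was 0.469 per spot, 0.422 per piece, 0.452 thinned, 0.372 without Cd74, 0.454 with layers set by smooth muscle genes alone, 0.366 with clear layers, and 0.371 to 0.441 with 1 piece left out. In WT wound it was 0.805 per spot, 0.713 per piece, 0.741 thinned, 0.601 without Cd74, 0.776 by smooth muscle genes alone, and 0.577 to 0.812 with 1 piece left out. In WT intact it was 0.811 per piece and 0.858 without Cd74, turned to 1.09 with clear layers, and was 0.816 to 1.01 with 1 piece left out, above 1 without WT intact piece 1.

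Within epithelium, WT wound over WT intact was 2.29 per spot, 1.86 per piece, 2.09 thinned, 1.52 without B-cell-rich spots, 1.61 without Cd74, 1.83 by smooth muscle genes alone, 1.44 with clear layers, and 1.30 to 2.02 with 1 piece left out. Within stroma it was 2.11 per piece, 2.14 without B-cell-rich spots, 2.29 without Cd74, 2.25 by smooth muscle genes alone, 2.27 in muscle-led stroma, and 1.48 to 3.02 with 1 piece left out. KO over WT wound within epithelium was 0.724 per spot, 0.778 per piece, 0.767 thinned, 0.968 without B-cell-rich spots, 0.940 with clear layers, and 0.709 to 1.10 with 1 piece left out. Within stroma it was 1.245 per spot, 1.26 thinned, 1.505 without B-cell-rich spots, 1.43 by smooth muscle genes alone, 1.64 with clear layers, 1.19 in muscle-led and 1.52 in fibroblast-led stroma, and 1.09 to 2.22 with 1 piece left out. The cause of these shifts was not tested. The split of stroma into muscle-led and fibroblast-led spots was chosen after seeing the data.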
